A study of Mus musculus with 8 samples.

Results

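The BCL2 family decides whether mitochondria release the proteins that start apoptosis. Its anti-apoptotic members bind and hold back the effectors BAX and BAK, and its BH3-only members are sensors of stress that neutralise the guardians or activate the effectors directly. In the heart, whose muscle cells are hardly renewed, the balance between guardians and BH3-only proteins is known to set how readily cardiomyocytes die under ischaemia, calcium overload or toxic drugs. The mRNA of 10 family genes was followed here: the guardians Bcl2l1, Bcl2, Mcl1 and Bcl2l2, the effectors Bax and Bak1, and the BH3-only genes Bcl2l11, Bbc3, Pmaip1 and Bid. A gene was used where the platform annotation gave a probe set exactly 1 symbol, and values were averaged over such probe sets. Of the 10 genes 9 had one, among 22180 genes in all, and Bax was not analysed here.

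Hearts came from wild-type male mice aged 8 to 10 weeks, labelled C57BL6JRj. Digoxin, a cardiac glycoside that inhibits the Na/K-ATPase, was given at 1 mg/kg into the peritoneum to 5 mice at ZT5, and 3 received the solvent alone (ethanol, propylene glycol, citric acid and sodium phosphate). All hearts were taken at ZT9, where ZT0 is lights-on, and each array is taken as 1 mouse. Values are log2 expression from Affymetrix Mouse Gene 2.0 ST arrays, centred for each probe set. They give differences between hearts and no absolute level, so the genes cannot be ranked by abundance. Precision is limited by how few arrays there were. The hearts are whole tissue, in which fewer cells of a type and less RNA per cell cannot be told apart.

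Some arrays stood apart. The values were more widely spread in vehicle replicate 3 (interquartile range 0.216) than in any of the other arrays (0.0792 to 0.115). In digoxin replicate 4 the mean of 5 T cell markers was 1.72, with Cd3g at 3.16, while the other arrays lay between -0.04 and 0.11. The mean of 6 atrial markers ran from -0.45 to 1.88 in digoxin hearts and from 0.29 to 2.39 in vehicle hearts, and all 6 had lower means in digoxin hearts. Fits without digoxin replicate 4 or vehicle replicate 3, and with the atrial mean as a covariate, are given below as alternatives. The part of these signals in the results was not otherwise tested. The mean of 6 general cardiomyocyte markers (Myh6, Tnnt2, Actc1, Tnni3, Ryr2 and Pln) stayed between -0.04 and 0.06 over all 8 hearts. The groups overlapped in all 11 marker lists measured, and 0 of their genes passed in limma. Since the values are centred, whether a marker is absent cannot be read from them.

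Of the 9 genes, Bcl2l1 alone showed a large difference between the groups. Its mean in digoxin hearts was 2.85 times that in vehicle hearts (95% interval 2.59 to 3.14). The other 8 had log2 differences between -0.04 and 0.20, and the median of the 9 was 0.05, against -0.01 over all genes. One member, Bcl2l1, passed the limma test across all genes (adjusted p below 0.05), where 1.36% of the 22180 genes passed, 0.947% with higher values in digoxin hearts. The set was chosen by its place in the cell death pathway with the digoxin against vehicle values of these arrays in view, Bcl2l1 among them. The values are therefore a description, and nothing is read from that count.

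Bcl2l1 has 3 start sites in the RefSeq table, and the sequence before each is shown because this is the gene that differed. The stretches are the 250 bases before the start, from RefSeq on GRCm38.p6, minus strand, written 5′ to 3′, with capitals marking a match to the NF-kB motif. They lie at chr2:152831729-152831978 (distal), chr2:152830718-152830967 (middle) and chr2:152828490-152828739 (proximal).
Bcl2l1 distal start: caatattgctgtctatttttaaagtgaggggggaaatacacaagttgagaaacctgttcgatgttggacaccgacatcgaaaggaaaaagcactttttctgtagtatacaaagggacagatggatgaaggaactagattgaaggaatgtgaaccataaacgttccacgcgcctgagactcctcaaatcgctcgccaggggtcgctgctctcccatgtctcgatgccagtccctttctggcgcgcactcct
Bcl2l1 middle start: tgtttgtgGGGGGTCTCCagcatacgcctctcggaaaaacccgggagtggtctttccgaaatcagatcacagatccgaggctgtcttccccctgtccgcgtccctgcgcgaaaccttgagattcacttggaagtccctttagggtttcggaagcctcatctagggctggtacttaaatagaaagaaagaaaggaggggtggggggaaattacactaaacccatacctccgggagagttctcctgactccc
Bcl2l1 proximal start: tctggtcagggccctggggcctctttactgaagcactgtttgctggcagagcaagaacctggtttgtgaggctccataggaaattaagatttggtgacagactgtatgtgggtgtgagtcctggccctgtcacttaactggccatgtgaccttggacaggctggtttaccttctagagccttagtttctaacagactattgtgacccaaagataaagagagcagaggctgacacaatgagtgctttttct

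Both strands were searched for 8 motifs: the glucocorticoid receptor half-site TGTTCT, the STAT site TTCNNNGAA, the FOXO site TGTTTAC, the E-box CACGTG, the cyclic AMP response element TGACGTCA, the GC box GGGCGG, and the p53 half-site and NF-kB site by their usual consensus. The single match in the 3 Bcl2l1 windows was the NF-kB motif (GGGGGTCTCC) 242 bases before the middle start, and this motif is found in 7.25% of 32851 windows of the same length. Among the members Bbc3, which stood at -0.04, carries it too. Windows were searched for 9 member genes, and Pmaip1 was left out. None of these windows held the glucocorticoid receptor half-site, which 16.1% of all windows hold. The STAT site (7.02%) and the cyclic AMP response element (1.55%) were also absent from them. A GC box, found in 32.7% of all windows, was present for 7 of the 8 other member genes with a window and for no Bcl2l1 start. The exception among the 8 was Bak1. The shares over all windows count windows, while members are counted as genes, some of them with more than 1 window. The GC content of the Bcl2l1 windows was 47.6%, 53.2% and 48.4%, and that of the 11 windows of other members 54.0% to 81.6%, all above the median of 52.4% over all windows. These are letters in short windows, and a missing match says nothing of a factor that binds elsewhere.

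The FOXO motif, found in 3.17% of all windows, was present for 2 member genes, Bcl2l11 and Bbc3, each with more than 1 window. Both are described as FOXO targets in other cells. A Bcl2l11 window is shown because it carries the motif while the mRNA stood 0.03 apart between the groups. It lies at chr2:128125788-128126037 on the plus strand, and capitals mark the FOXO match, which reads on the opposite strand, in the first run and GC boxes in the others.
Bcl2l11 first start: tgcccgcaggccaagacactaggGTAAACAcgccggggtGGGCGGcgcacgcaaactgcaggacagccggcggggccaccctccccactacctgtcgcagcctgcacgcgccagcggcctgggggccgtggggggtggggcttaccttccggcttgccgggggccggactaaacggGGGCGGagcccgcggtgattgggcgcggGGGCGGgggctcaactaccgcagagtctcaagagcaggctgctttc

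Bcl2l1 encodes Bcl-xL, the guardian that keeps mitochondria intact in many adult tissues, and by alternative splicing the shorter pro-apoptotic Bcl-xS. The centred log2 values in digoxin hearts 1 to 5 were 1.28, 1.29, 1.32, 1.29 and 1.26. In vehicle hearts 1 to 3 they were -0.07, -0.27 and -0.34. The lowest digoxin heart was 1.33 above the highest vehicle heart. The digoxin hearts lay within 0.06 of each other, a narrower range than that of the vehicle hearts (0.27). The means were 1.28 ± 0.02 (SD, n = 5) and -0.23 ± 0.14 (SD, n = 3), a log2 difference of 1.51 with an SE of 0.06. This SE and the 95% interval given above take the spread as equal in both groups, which it was not. With only 3 vehicle hearts, the more variable group, both may be too small. One probe set reports the gene, so the long and short splice forms are not separated.

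**Figure D1:**
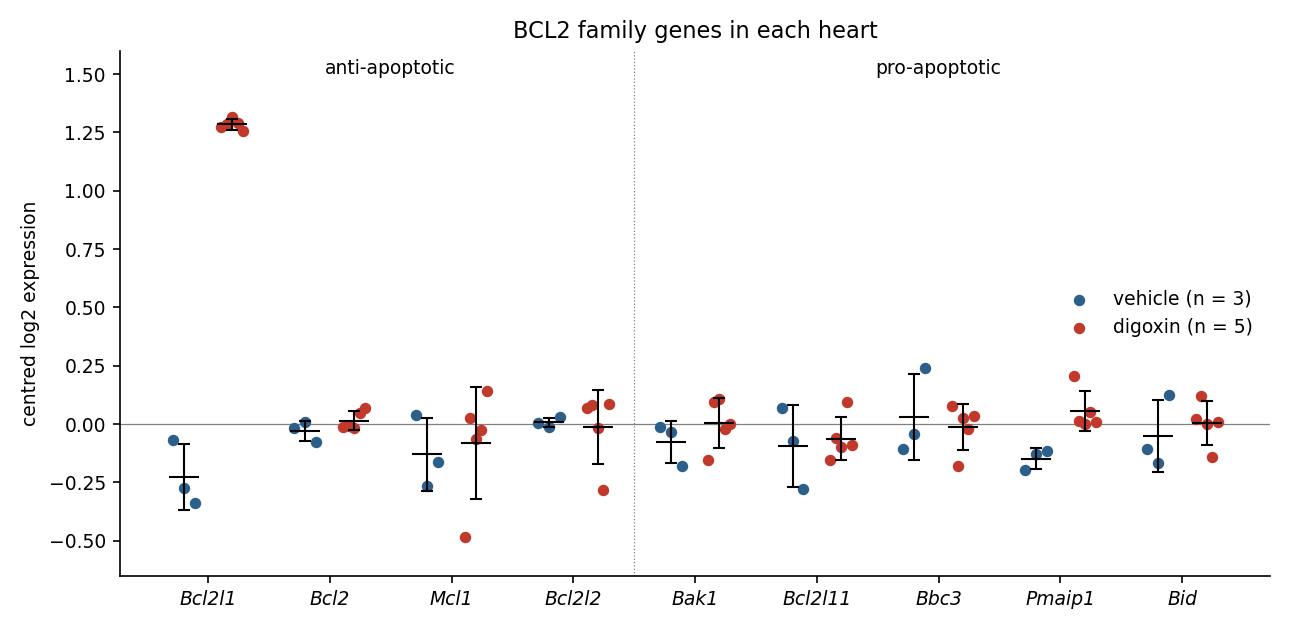
Centred log2 expression (vertical axis) of 9 BCL2 family genes in 3 vehicle hearts (blue) and 5 digoxin hearts (red), with 1 point per heart, the mean as a short line and the SD as a bar. Bcl2l1 is the gene whose digoxin hearts sit at 1.26 to 1.32, far above its vehicle hearts, while the other genes lie around 0 in both groups.

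The size of the Bcl2l1 difference moved little with the arrays and the processing. Leaving out 1 heart at a time gave 1.46 to 1.59, the lower end without vehicle replicate 3 and the upper end without vehicle replicate 1. Without digoxin replicate 4, the heart with high T cell markers, it was 1.51, and with digoxin replicate 4 and vehicle replicate 3 both left out it was 1.46. With the atrial marker mean of each heart as a covariate it was 1.56.

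The other 3 guardians showed no such difference. Bcl2, the founding member and a survival factor of lymphocytes as well as heart muscle, stood at -0.01, -0.0064, -0.02, 0.05 and 0.07 in digoxin hearts. In vehicle hearts it stood at -0.02, 0.0073 and -0.08, so the groups overlapped. The log2 difference was 0.04 with an interval of -0.05 to 0.14, a ratio between 0.964 and 1.10. Its within-group SD of 0.04 was below the median of 0.10 over all genes, and 9.48% of genes had a smaller one. Digoxin replicate 4, the heart with high T cell markers, stood at 0.05, above every heart but digoxin replicate 5. Without digoxin replicate 4 the difference was 0.04. The part of the T cell signal in Bcl2 was not tested.

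Mcl1 encodes a short-lived guardian that cardiomyocytes are known to depend on. Its values in digoxin hearts were -0.49, 0.03, -0.07, -0.02 and 0.14, and in vehicle hearts 0.04, -0.27 and -0.16. The groups overlapped, and the difference of 0.05 had the widest interval of the family, from -0.26 to 0.35. That spread came from one of its 2 probe sets. Probe set 17407826 ran from -0.97 in digoxin replicate 1 to 0.20 in digoxin replicate 5. Probe set 17400418 stayed between -0.10 and 0.08 in all 8 hearts, with a difference of 0.07 (SE 0.05). Without digoxin replicate 1 the gene's difference was 0.15.

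**Figure D2:**
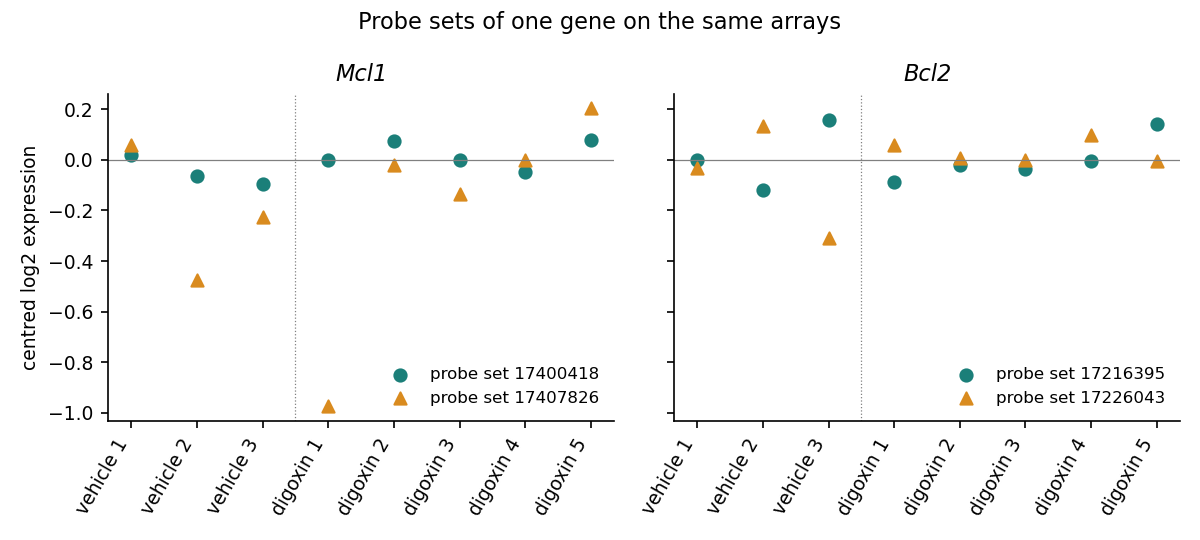
Centred log2 expression (vertical axis) of the 2 probe sets of Mcl1 (left) and the 2 of Bcl2 (right) in each vehicle and digoxin heart, with 1 point per probe set and heart. In Mcl1 the triangle of digoxin replicate 1 lies at -0.97 while the circle of that heart is at 0.0012, and in Bcl2 vehicle replicate 3 has values of 0.16 and -0.31.

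The 2 probe sets of Bcl2 also went apart in single hearts. In vehicle replicate 3 one gave 0.16 and the other -0.31, and over the groups their differences were -0.01 (SE 0.07) and 0.10 (SE 0.09). The averaged gene varied less than either probe set.

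Bcl2l2, which encodes the guardian Bcl-w, stood at 0.07, 0.08, -0.02, -0.28 and 0.09 in digoxin hearts and at 0.0048, -0.01 and 0.03 in vehicle hearts. The low value is that of digoxin replicate 4. The difference was -0.02 with an interval of -0.21 to 0.17, and without that heart it was 0.05. In the mean of Bcl2, Mcl1 and Bcl2l2 the digoxin hearts ran from -0.14 to 0.10 and the vehicle hearts from -0.09 to 0.0097.

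Among the genes that promote death, the effector Bak1, whose protein forms pores in the outer mitochondrial membrane, stood at -0.16, 0.09, 0.11, -0.02 and 0.00 in digoxin hearts. The vehicle hearts stood at -0.01, -0.04 and -0.18. The groups overlapped, and the difference of 0.08 had an interval of -0.08 to 0.24.

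Pmaip1 encodes Noxa, a BH3-only protein that binds MCL1 and is a known p53 target. It was the member beside Bcl2l1 whose groups did not overlap. Its values were 0.21, 0.01, 0.00, 0.05 and 0.0080 in digoxin hearts and -0.20, -0.13 and -0.12 in vehicle hearts. The difference of 0.20 (SE 0.06, interval 0.08 to 0.33) is a ratio of 1.15, and Pmaip1 did not pass the limma test across all genes. It was 0.17 without digoxin replicate 1, the highest heart. Groups without overlap were found for 2 of the 9 members, both higher in digoxin hearts, and for 8.16% of all genes (4.4% higher and 3.76% lower in digoxin hearts). Nothing is read from this share either.

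The BH3-only sensors Bcl2l11, Bbc3 and Bid overlapped between the groups. Bcl2l11 encodes BIM, which binds every guardian and responds to loss of growth factors. It ran from -0.16 to 0.09 in digoxin hearts and from -0.28 to 0.07 in vehicle hearts, with a difference of 0.03 (interval -0.16 to 0.22). Bbc3 encodes PUMA, a p53-induced activator of apoptosis. It ran from -0.18 to 0.08 in digoxin hearts and from -0.11 to 0.24 in vehicle hearts, with a difference of -0.04 (interval -0.24 to 0.16). Bid links death receptors to mitochondria after cleavage by caspase 8. It ran from -0.14 to 0.12 in digoxin hearts and from -0.17 to 0.12 in vehicle hearts, with a difference of 0.05 (interval -0.13 to 0.23).

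The highest and lowest hearts differed from gene to gene. Vehicle replicate 3 was the highest of the 8 for Bbc3 and Bid, and the lowest for Bcl2l1, Bcl2l11, Bak1 and Bcl2. The signs of the small differences were not stable. In the 17 alternatives run for genes with 1 probe set, Bcl2l11 turned sign in 6, Bbc3 in 4, Bcl2l2 in 4 and Bid in 2, and Mcl1 turned in 3 of 16. Bcl2l1, Bak1 and Pmaip1 kept their sign in all that were run. Bcl2 kept it in the alternatives on the averaged gene, while one of its 2 probe sets taken alone stood at -0.01. With quantile normalization Bbc3 stood at 0.00077 and Bcl2l11 at -0.03.

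Bcl2l1 minus the mean of the 5 pro-apoptotic genes, as a difference of centred log2 values, was 1.26 to 1.31 in digoxin hearts and -0.30 to 0.0011 in vehicle hearts. The mean of the 5 pro-apoptotic genes itself lay between -0.0077 and 0.0080 in digoxin hearts and between -0.09 and -0.04 in vehicle hearts. The groups did not overlap in that mean, and their means lay 0.07 apart. For Bcl2l1 minus that mean they lay 1.45 apart. Of the 5 genes Pmaip1 had the largest difference (0.20) and alone had groups without overlap. Bak1 (0.08), Bid (0.05), Bcl2l11 (0.03) and Bbc3 (-0.04) each overlapped. No mean without Pmaip1 was made, so its part in the mean was not tested. The lack of overlap in the mean is not read as a trait of the 5 genes together. The mean of the other guardians minus the mean of the pro-apoptotic genes overlapped between the groups, from -0.14 to 0.11 in digoxin hearts and from -0.03 to 0.08 in vehicle hearts.

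**Figure D3:**
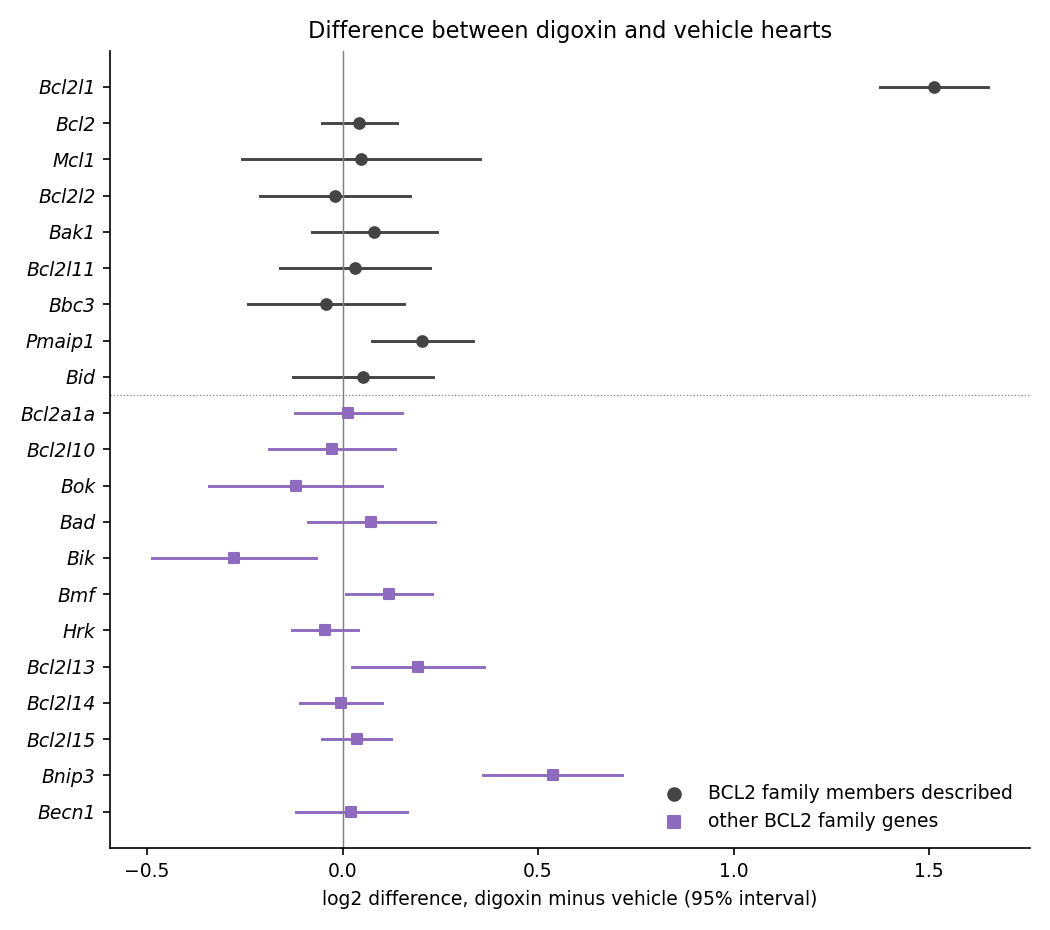
Log2 difference between digoxin and vehicle hearts (horizontal axis) with its 95% interval from limma, for the 9 members described (circles) and 12 other BCL2 family genes (squares). Bcl2l1 lies at 1.51 and Bnip3 at 0.54, and the other genes lie between -0.28 and 0.20.

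The wider family was measured in 12 further genes of 16 listed. One rose in limma and 0 fell, a share of 8.33% against 1.36% of all genes. An unadjusted p below 0.05 was found for 4, 33.3% against 12.3% of all genes. The median difference was 0.02. Bnip3, a mitochondrial BH3-like protein that serves as a receptor for mitophagy, stood at 0.44, 0.28, 0.49, 0.41 and 0.41 in digoxin hearts and at -0.21, 0.07 and -0.25 in vehicle hearts. No digoxin heart was as low as a vehicle heart. It rose by 0.54 (SE 0.08, adjusted p = 0.0143 in limma), and the call was lost without vehicle replicate 1 (adjusted p = 0.0550 in limma).

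Bik, a BH3-only gene, was lower in every digoxin heart than in any vehicle heart. Its values were -0.08, -0.09, -0.46, -0.18 and -0.38 against 0.06, 0.00 and 0.05. The difference of -0.28 (SE 0.09) did not pass (adjusted p = 0.261 in limma). Bmf, a BH3-only protein tied to the cytoskeleton, had digoxin hearts at 0.00 to 0.16 and vehicle hearts at -0.09 to -0.0029, a difference of 0.12 that did not pass. Bcl2l13, another mitophagy receptor of the family, stood at 0.19, and Bad, the BH3-only target of survival kinases, at 0.07, and neither passed. Bcl2a1a, a guardian of blood cells with near-identical copies in the mouse genome, stood at 0.01, and its probe set may take signal from those copies.

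Downstream of the mitochondria, none of 12 genes of the apoptosome, the caspases and the released proteins passed in limma, against 1.36% of all genes. An unadjusted p below 0.05 was found for 1, 8.33% against 12.3% of all genes. Their differences ran from -0.13 to 0.16 with a median of 0.06. The gene of smallest p was Aifm2, which encodes FSP1, a suppressor of ferroptosis, at 0.16 (SE 0.06, adjusted p = 0.358 in limma). It was followed by Aifm1, which encodes apoptosis-inducing factor, at 0.12 (SE 0.09). Of the 8 inhibitors of apoptosis measured 0 passed in limma, with 1 unadjusted p below 0.05 (12.5%, against 12.3% of all genes). Birc2, which encodes the ubiquitin ligase cIAP1, stood at 0.33 (SE 0.11, adjusted p = 0.241 in limma). Without vehicle replicate 1 it stood at 0.46 (adjusted p = 0.0420 in limma), and without vehicle replicate 3, its lowest heart, at 0.19. Naip2 stood at -0.15.

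Among 8 adaptors of death receptors and proteases that act on BID, 0 passed in limma, against 1.36% of all genes. An unadjusted p below 0.05 was found for 2, 25% against 12.3% of all genes. Capn2, the catalytic subunit of the calcium-activated protease m-calpain, stood at 0.12, 0.11, 0.19, 0.13 and 0.22 in digoxin hearts and at -0.06, -0.0073 and -0.08 in vehicle hearts. The groups were apart, and the difference of 0.21 (SE 0.04) had an adjusted p of 0.0692 in limma, or 0.0456 with quantile normalization. Casp8, the caspase that cleaves BID, stood at -0.25 (SE 0.10, adjusted p = 0.357 in limma), with overlapping groups.

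The partners of the family in the mitochondrial membranes were 12 genes of channels, carriers, fusion and fission. Of these 0 passed in limma, against 1.36% of all genes, and 0 had an unadjusted p below 0.05, against 12.3%. Their differences ran from -0.13 to 0.17, with Opa1, the inner membrane fusion gene, at 0.17 and Mtch2, the receptor of cleaved BID, at 0.13. Of 5 partners in the endoplasmic reticulum 0 passed in limma, against 1.36% of all genes. There was 1 unadjusted p below 0.05 (20%, against 12.3% of all genes). The calcium release channel gene Itpr2 stood at 0.31 (SE 0.12), or 0.21 without digoxin replicate 4, which held its highest value. Bcap31 stood at 0.13. Of 12 ubiquitin ligases, deubiquitinases and BAG co-chaperones that act on the family, 0 passed in limma, against 1.36% of all genes. Of the same 12 genes 4 had an unadjusted p below 0.05 (33.3%, against 12.3% of all genes). The co-chaperone genes Bag3 and Bag5 stood at -0.26 (SE 0.09) and 0.17 (SE 0.07).

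Of 11 splicing factors listed for Bcl-x, 1 fell and 0 rose in limma, 9.09% against 1.36% of all genes (0.415% lower in digoxin hearts). An unadjusted p below 0.05 was found for 2, 18.2% against 12.3% of all genes. Rbm5, an RNA-binding protein better known for the splicing of Fas and caspase transcripts, stood at -0.43, -0.27, -0.29, -0.18 and -0.23 in digoxin hearts. The vehicle hearts stood at 0.25, 0.20 and 0.13, so the groups were apart. It had a log2 difference of -0.47 (SE 0.06, adjusted p = 0.0080 in limma) and passed in each fit that left out 1 heart (highest adjusted p = 0.0410 in limma). Sf3b1, a core factor of the spliceosome, stood at 0.31 (SE 0.09, adjusted p = 0.180 in limma).

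Of 17 transcription factors reported to act on family genes, 1 rose and 0 fell in limma, 5.88% against 1.36% of all genes, and 8 had an unadjusted p below 0.05, 47.1% against 12.3% of all genes. Bcl6 shares its name with the family but encodes a zinc finger repressor, known from germinal centre B cells. Its values were 0.39, 0.43, 0.50, 0.70 and 0.35 in digoxin hearts and -0.18, -0.24 and -0.20 in vehicle hearts, without overlap. It rose by 0.68 (SE 0.08, adjusted p = 0.0038 in limma), and passed in each fit that left out 1 heart. The mean of 5 B cell markers was -0.08 to 0.02 in digoxin hearts and -0.06 to 0.16 in vehicle hearts, and all 5 had lower means in digoxin hearts.

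Myc, whose protein raises BIM and lowers Bcl-xL in lymphoid cells, stood at 0.41 (SE 0.08, adjusted p = 0.0510 in limma), with digoxin hearts at 0.09 to 0.48 and vehicle hearts at -0.15 to -0.06. It passed with quantile normalization (adjusted p = 0.0199 in limma), with array weights and without digoxin replicate 2. Foxo3, which drives BIM and PUMA in other cells, stood at 0.38 and did not pass (adjusted p = 0.0933 in limma). Without digoxin replicate 1 it passed (adjusted p = 0.0447 in limma). Nr3c1, the gene of the glucocorticoid receptor, stood at -0.27 and did not pass (adjusted p = 0.1005 in limma). Without digoxin replicate 2 it passed (adjusted p = 0.0410 in limma). Creb1 stood at -0.34 (adjusted p = 0.215 in limma) and Atf4 at -0.28 (adjusted p = 0.241 in limma), both with overlapping groups. Both passed with array weights, a fit that called 614 of all genes against 302 without weights. Also with an unadjusted p below 0.05 were Gata4 and Ddit3. Gata4 stood at -0.28 with groups apart (adjusted p = 0.139 in limma). Ddit3 stood at -0.20 with overlapping groups (adjusted p = 0.382 in limma). Foxo3, Nr3c1, Creb1, Atf4, Gata4 and Ddit3 lie outside the naming rule, as do Bmf, Bcl2l13, Bad and Bcl2a1a above. All of these were named after their values were seen.

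**Figure D4:**
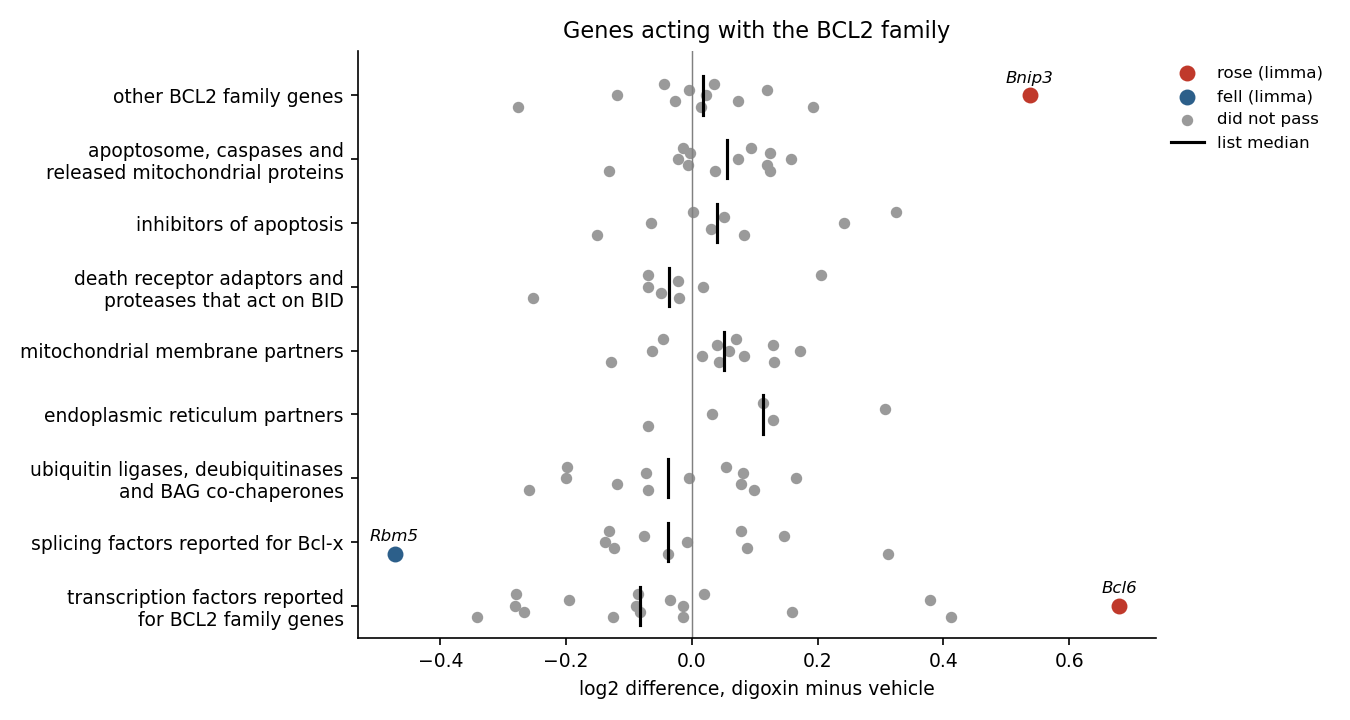
Log2 difference between digoxin and vehicle hearts (horizontal axis) for the genes of 9 lists acting with the BCL2 family, with 1 point per gene and the list median as a black line. Bcl6 (0.68) and Bnip3 (0.54) rose, Rbm5 (-0.47) fell, and the other 94 genes in grey did not pass.

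Over the 9 lists together, 2 of 97 genes rose and 1 fell in limma, 3.09% against 1.36% of all genes. The median difference was 0.0020, and 49 had a higher and 48 a lower mean in digoxin hearts. These lists, like the members, were drawn up with earlier results of these hearts known. In lists this short, 0 calls lies near the share over all genes, and nothing is read from it.

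The genes most like Bcl2l1 over the 8 hearts, by Pearson's r among 17442 named genes, were Cited2 (0.993), Arrdc2 (0.991), Fam107a (0.989), Map3k6 (0.989) and Fkbp5 (0.988). Each r mostly measures the step between the groups, and 221 genes had an r above 0.9. Cited2, a transcriptional co-regulator that competes with HIF-1 alpha for p300, stood at 0.34 to 0.50 in digoxin hearts and at -0.56 to -0.44 in vehicle hearts, a difference of 0.94. Fam107a, a stress-responsive actin-binding protein gene, differed by 1.26 and the stress kinase gene Map3k6 by 1.42. The alpha-arrestin gene Arrdc2 differed by 2.03. Fkbp5, whose protein restrains the glucocorticoid receptor as an HSP90 partner, differed by 2.17. The range over the 5 digoxin hearts was wider in Fkbp5 (1.96 to 2.42) and Arrdc2 (1.31 to 1.74) than in Bcl2l1.

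**Figure D5:**
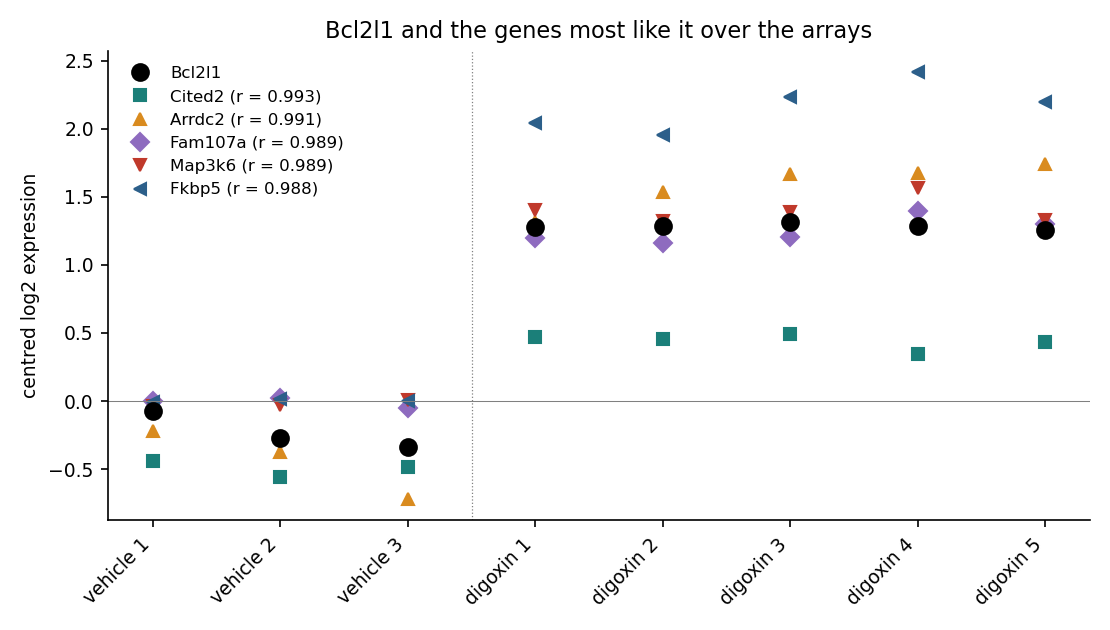
Centred log2 expression (vertical axis) of Bcl2l1 (black) and the 5 genes most like it in each vehicle and digoxin heart, with 1 point per gene and heart. All 6 genes sit higher in the 5 digoxin hearts than in the 3 vehicle hearts, and Bcl2l1 has the flattest row of digoxin values.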

How the data were processed

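Heart RNA of 5 digoxin and 3 vehicle mice was measured on Affymetrix arrays (Mouse Gene 2.0 ST). The authors normalised the arrays with Robust Multi-array Average, per the design text of the series, and the submitters' processing notes name limma, whose version is not given in the sources used here. What was deposited is log2 expression, centred probe set by probe set. Array medians lie between -0.0058 and 0.0087. The log base is taken as that of the method, what the centre refers to is unknown, and it is taken to cancel in differences.

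Of 34351 probe sets, 23521 had 1 symbol and 1814 several, which were not used. Means over probe sets gave 22180 genes. The test was limma 3.58.1 under R 4.3.3 (moderated by eBayes, no covariate, two-sided, Benjamini-Hochberg over all genes, threshold 0.05), with 6 residual and 2.75 prior degrees of freedom. The fit was tested on simulated data. No 2 arrays were identical. The design text counts 4 vehicle samples, and 3 were analysed here. The array numbers put vehicle before digoxin, so the order of the arrays cannot be told apart from the treatment. Since no label ties arrays to animals, a p here reflects how these samples vary, which may be technical.

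The members and lists were chosen with earlier results of these data known. Named were all members, list genes past the test, the 2 of smallest p in each list, and the 5 genes of highest correlation with Bcl2l1, leaving out predicted genes, small RNAs, and odorant and pheromone receptors. Of 110 genes in the lists 97 were measured. Of the 12 marker lists, the erythroid one was not analysed here. Promoter windows came from RefSeq GRCm38.p6 and were searched for 9 member genes, leaving out Pmaip1. Alternatives covered normalization, probe sets, variance, array weights, thresholds, the replicate number and each array. Leaving out digoxin 4 and vehicle 3 together, and the atrial covariate, were added after the data were seen.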

Additional observations from a re-analysis of the deposited data

Results flagged for a closer look

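In 43 sets of values from the 5 digoxin hearts (named genes and 11 marker lists), 6 had 1 heart far from the other 4. Chance gives about 1 in 20. The T cell marker mean was 1.72 in digoxin replicate 4, against -0.04 to 0.11 in the other digoxin hearts. The same heart was apart for Bcl2l2 (-0.28, against -0.02 to 0.09), Mtch2 (-0.24, against 0.0046 to 0.05) and Itpr2 (0.67, against 0.15 to 0.29). Pmaip1 was 0.21 in digoxin replicate 1, against 0.00 to 0.05. Bcap31 was 0.16 in digoxin replicate 5, against -0.0082 to 0.02. The part of the T cell signal in the other 3 genes of digoxin replicate 4 was not tested.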

How the results depend on the processing

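The Bcl2l1 difference ran from 1.45 with quantile normalization to 1.59 without vehicle replicate 1, and it was the 1 member past the threshold in every alternative run.

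Over all genes, 210 were higher and 92 lower. The counts were 327 and 166 at a threshold of 0.1, 95 and 23 at 0.01, and 320 lower with array weights and 282 lower with digoxin replicate 4 and vehicle replicate 3 both left out. With 1 heart left out the higher genes numbered 123 to 185, moving by over 1.5 times without digoxin replicate 2 (133), 3 (129) or 5 (123). The lower genes numbered 29 to 189, moving so without digoxin replicate 1 (45), 2 (37), 3 (45) or 5 (43) and without vehicle replicate 2 (29) or 3 (189).

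No sign of pairing by replicate number was seen: deviations of same-numbered hearts correlated at -0.197, -0.0177 and 0.0236. Hearts of different number ran from -0.151 to 0.193, and with so few hearts these correlations cannot exclude pairing. With the replicate number as a block, in which digoxin replicates 4 and 5 have no partner, 11 genes were higher and 1 lower. Bcl2l1 stood at 1.52, and 0 genes of the wider family and of the transcription factors rose and 0 splicing factors fell. The block thus ended the calls of Bnip3 (adjusted p = 0.369 in limma), Rbm5 (0.204), Bcl6 (0.107) and Arrdc2 (0.0917). It also left fewer residual degrees of freedom. The differences of these genes with the block were 0.54, -0.52, 0.65 and 1.95, against 0.54, -0.47, 0.68 and 2.03 in the main fit.

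In the lists, the wider family had 0 rises at 0.01. The BID proteases had 1 rise (Capn2) with quantile normalization and at 0.1. The transcription factors had 2 rises with quantile normalization or array weights, 3 at 0.1, 2 falls with array weights and 1 fall (Creb1) with digoxin replicate 4 and vehicle replicate 3 both left out. With the atrial covariate 1 splicing factor rose (Sf3b1, adjusted p = 0.0342 in limma). Leaving out 1 heart gave 0 to 1 rises in the wider family, 0 to 1 among inhibitors of apoptosis, and 1 to 2 rises and 0 to 1 falls among transcription factors. Centred values hold no background level, so no filter on dim genes was possible.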
